A study of Mus musculus with 4 samples.

Results

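The peaks described here lay outside every annotated gene, just past the end of a gene whose own RNA carried peaks of DHX9, a nuclear helicase known for opening RNA duplexes. They were chosen by position: an autosomal peak entered if its midpoint lay in no RefSeq gene span of the mouse build mm10, if it lay past the end of the nearest gene with peaks by at most 20 kb, and if it was on the strand that held most of that gene's peaks. Of 43106 peaks in all and 42236 on the autosomes, 1005 lay in no gene span, and 439 of these met the rule. They followed 138 genes. The position and the strand of a peak were thus used to choose it, and the numbers by side and strand below are descriptions.

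Binding was mapped by FLASH, a crosslinking method that sequences, strand by strand, the RNA pulled down with a protein, in mouse neural progenitor cells. These were derived in culture from WT26 (strain C57BL/6x129sV), male embryonic stem cells, and grown with EGF and FGF2. There were 2 libraries with the DHX9-Rb antibody and 2 with IgG-Rb, the rabbit immunoglobulin background, each pair holding replicates A and B of these cells, with no treatment that differed between the groups. The data were 1 peak list for the 4 libraries together, with no count or score, so the depth was unknown, no value per library could be given and no test over samples was possible. Percentages carry 95% Wilson intervals, which cover counting error only and take peaks or genes as independent, although peaks of 1 gene share a transcript.

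The lists of cell type markers could be checked only as genes with peaks, since expression was not measured. A peak lay in 9 of 15 neural progenitor markers, with 122 in Slc1a3 and 64 in Ptprz1 but 0 in Sox2, Pax6 and Nes, and in 0 of 7 pluripotency markers. Of the neuron markers, 1 of 7 had peaks, Map2 with 46. For astrocytes and oligodendrocytes it was 4 of 10, and for mesoderm, endoderm and fibroblasts 3 of 8, with 28 peaks in Col3a1. Of all 20665 autosomal protein-coding genes, 4008 held a peak. The marker lists are short, and none was tested against that share.

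RNA polymerase II does not stop where a messenger RNA ends. It transcribes on past the cleavage and polyadenylation site, and the RNA made there is usually short-lived, being degraded from its free end while the polymerase slows and leaves the template. Some genes also use distant cleavage sites that an annotation may lack, and some annotated noncoding transcripts are shorter than the RNA made from the locus. RNA past an annotated end can hold hairpins, and microRNA precursors are the best-known ones: the enzyme Drosha cuts them out of longer nuclear transcripts.

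MicroRNA hairpins are the only stretches of the downstream DNA whose sequence was at hand, from RefSeq (GRCm38.p6, the mm10 assembly), and they are shown because DHX9 peaks reached into 4 of them. In all, 9 hairpins lay within 20 kb past the ends of 7 of the genes with downstream peaks, and all 9 were encoded on the strand of the gene's peaks. Past the ends of the other bound genes 42 of 88 hairpins (47.7%) were on the gene's strand, while before the starts it was 1 of 3 for the genes with downstream peaks and 43 of 67 (64.2%) for the other bound genes. Mir296 and Mir298 followed the same gene, as did Mir181a-1 and Mir181b-1, so the 9 are not independent. For Gnasas1 and Gm19426 no annotated strand was at hand to check that of the peaks. The shares were not tested. In these hairpins, written 5′ to 3′, capitals mark the mature arms.
Mir296: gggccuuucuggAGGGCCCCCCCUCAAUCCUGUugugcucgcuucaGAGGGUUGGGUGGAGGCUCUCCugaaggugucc
Mir298: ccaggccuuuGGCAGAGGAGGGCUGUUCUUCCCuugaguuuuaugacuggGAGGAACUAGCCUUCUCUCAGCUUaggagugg
Mir130a: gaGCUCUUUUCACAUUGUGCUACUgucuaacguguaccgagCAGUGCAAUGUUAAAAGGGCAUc
Mir3061: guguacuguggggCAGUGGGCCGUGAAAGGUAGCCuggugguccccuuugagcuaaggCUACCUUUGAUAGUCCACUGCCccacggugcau
Mir674: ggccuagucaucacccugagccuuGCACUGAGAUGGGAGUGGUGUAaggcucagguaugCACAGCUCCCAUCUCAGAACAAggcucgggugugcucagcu

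Mir296 (chr2:174267047-174267125, minus strand) and Mir298 (chr2:174267504-174267585, minus strand) lay at the far end of the run that followed Gnasas1, the antisense transcript of the imprinted Gnas locus. Mir296 began 14112 bases past the annotated end of Gnasas1, and 35 downstream peaks lay between. The last of these peaks covered 26 of the 79 bases of the Mir296 hairpin. On either side of Mir298 a peak overlapped its outermost bases, by 9 and by 10 of 82 bases, and no peak midpoint fell in the hairpin. Mir130a (chr2:84741115-84741178, minus strand) lay 987 bases past Gm19426, a long noncoding RNA gene, with 5 downstream peaks before it and 2 beyond. The nearest of them covered 20 of its 64 bases.

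Mir3061 (chr11:52126746-52126836, plus strand) lay 3997 bases past the end of Ppp2ca, which encodes the catalytic subunit of protein phosphatase 2A. A plus-strand peak of 167 bases covered all 91 bases of this hairpin. That peak counts as lying in a gene, so it was not among the 439, and 1 downstream peak was counted for Mir3061 itself, 302 bases beyond it. Mir674 (chr2:117185127-117185226, plus strand) lay 2848 bases past the end of Spred1, a gene for an inhibitor of Ras signalling, with 2 downstream peaks before it and 2 beyond. No peak touched the Mir674 hairpin, and the nearest lay 924 bases away.

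The other 4 hairpins on the gene's strand lay beyond the last downstream peak. Mir181a-1 and Mir181b-1 followed the noncoding gene Gm4258 at 3435 and 3619 bases, Mir8105 followed Rnf41 at 17239 bases, and Mir1969 followed Map1s at 7996 bases, and no peak overlapped any of these 4. The 9 hairpins give 16 mature microRNAs with 15 different seeds, and the only shared seed was that of miR-181a-5p and miR-181b-5p. In the mature sequences that follow, written 5′ to 3′, capitals mark the seed, bases 2 to 8.
miR-296-5p: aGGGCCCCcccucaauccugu
miR-296-3p: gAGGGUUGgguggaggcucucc
miR-298-5p: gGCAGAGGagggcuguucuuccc
miR-298-3p: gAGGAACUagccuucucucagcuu
miR-130a-5p: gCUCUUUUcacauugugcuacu
miR-130a-3p: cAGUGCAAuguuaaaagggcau
miR-3061-5p: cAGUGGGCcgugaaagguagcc
miR-3061-3p: cUACCUUUgauaguccacugcc
miR-181a-5p: aACAUUCAacgcugucggugagu
miR-181b-5p: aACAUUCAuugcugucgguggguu

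Intergenic peaks near bound genes lay mostly past the end and on the gene's strand. Of the 664 within 20 kb of their nearest bound gene, 439 (66.1%, interval 62.4 to 69.6%) were the downstream peaks, against 106 before the start on the gene's strand, 54 past the end on the other strand and 65 before the start on the other strand. Past the end, 89.0% (86.0 to 91.5%) of the peaks were on the gene's strand, and before the start 62.0% (54.5 to 68.9%). The other 341 of the 1005 lay more than 20 kb from any bound gene. Of the 341, 142 were past the end on the gene's strand, and for 1 the nearest bound gene had as many peaks on each strand.

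Since some genes have close neighbours, numbers were set against the open DNA, meaning the DNA that lies in no gene and nearest to a given bound gene. The first 1000 bases past the end held 115 downstream peaks in 3.17 Mb of open DNA, or 36.3 peaks per Mb. The density was 29.4 per Mb between 1 and 2 kb, 19.8 between 2 and 5 kb, 6.57 between 5 and 10 kb, and 3.10 between 10 and 20 kb. Before the start on the gene's strand the same bins gave 9.51, 5.67, 3.82, 2.29 and 0.685 per Mb, so the downstream density was between 2.87 and 5.19 times the upstream one in these bins. On the other strand past the end no bin exceeded 2.52 per Mb. Over the whole 20 kb the densities were 12.0 peaks per Mb past the end and 2.60 before the start on the gene's strand. With each gene counted once in a bin, the downstream values were 23.0 genes per Mb in the first bin and 22.6 in the next, then 8.95, 1.75 and 0.620. The spans of bound autosomal genes held 115.0 peaks per Mb. That value counts both strands in spans chosen for holding a peak, so it is not on the same footing.

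**Figure D1:**
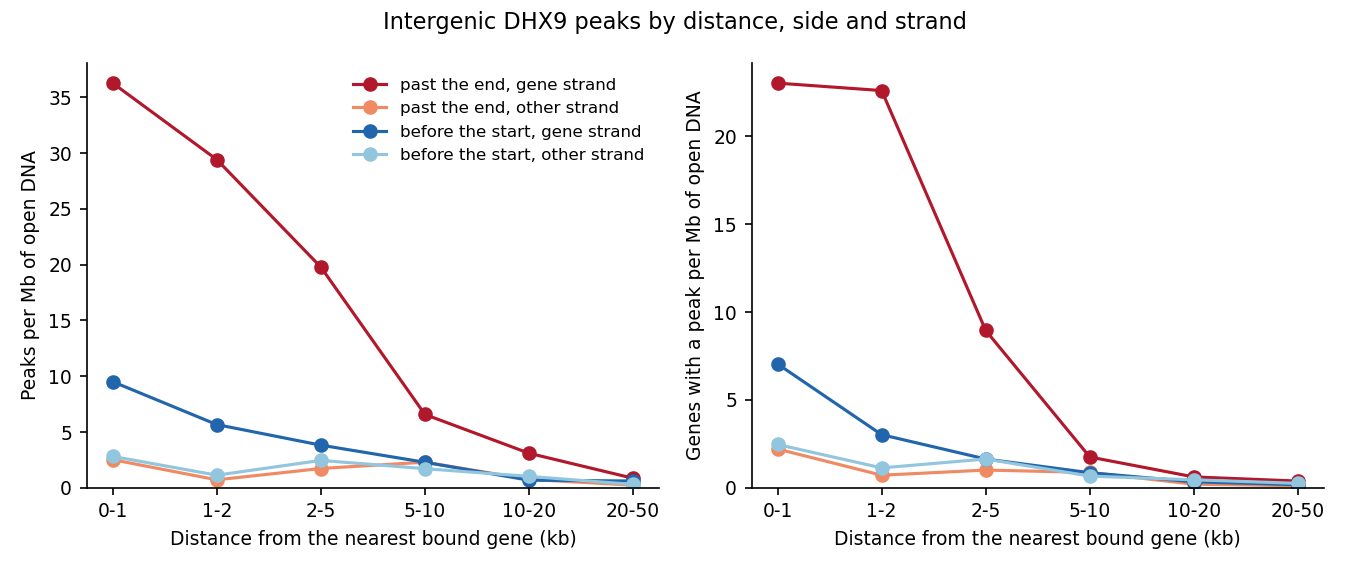
Intergenic DHX9 peaks by distance from the nearest bound gene (x axis, kb), as peaks per Mb of open DNA (left panel, y axis) and as genes with at least 1 such peak per Mb (right panel, y axis), for peaks past the end on the gene strand (red), past the end on the other strand (orange), before the start on the gene strand (dark blue) and before the start on the other strand (light blue). Past the end on the gene strand the density was 36.3 peaks per Mb in the first 1000 bases and 3.10 between 10 and 20 kb; the last bin, 20 to 50 kb, lies outside the rule.

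Some peaks before gene starts also lay past the end of another gene. Of the 106 on the gene's strand, 56 (52.8%, interval 43.4 to 62.1%) also lay within 20 kb past the end of another bound gene of that strand, at distances of up to 19618 bases. A gene with downstream peaks of its own came before 32 of the 56, and one without before the other 24. The largest such group, 14 peaks, lay between Mcl1 and the noncoding gene Gm52627, nearer to Gm52627. A group of 6 lay between Ppp2ca and Mir3061. For the other strand, 6 of 54 peaks past the end and 2 of 65 before the start lay past another bound gene of their own strand.

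The 439 peaks lay close to the gene end. The midpoint was a median of 2310 bases past it, the interquartile range was 979 to 4638.5 bases, and the range was 3 to 19416 bases. Within 1000 bases lay 26.2% of the peaks, within 2000 bases 44.9%, within 5000 bases 76.1% and within 10000 bases 89.7%. A few bases of a gene span were inside 11 of the 439 peaks, although the midpoint was outside. At the limit of the rule, the peaks of the largest distance were those of Adamtsl4 at 19416 and 18247 bases and of Mir99ahg at 17952 bases. Just outside it were peaks 20141 and 20464 bases past Adamtsl4 and 20280 bases past the pseudogene Ube2d-ps.

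The peaks came in runs. A single downstream peak followed 67 genes, 2 to 4 followed 45 genes, 5 to 9 followed 20 genes, and 10 or more followed 6 genes, which held 117 of the 439. The 10 genes with the most held 34.4%. Neighbouring downstream peaks of a gene lay a median of 405 bases apart (301 distances, interquartile range 262 to 660), against 427 bases between neighbouring peaks inside the same genes and 484 bases inside all bound autosomal genes. Distances under 500 bases made up 63.1%, 57.3% and 51.4% in these 3 sets. The median spacing past the end was thus of the size found within the genes, although the 20 kb window leaves out longer steps past the end. Larger was the step from the last inside peak to the first downstream peak. Its median was 4051 bases over the 138 genes (interquartile range 1342.5 to 10858.8), with 8.70% under 500 bases.

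Peak length was also of the same size. Downstream peaks had a median of 151 bases (interquartile range 121 to 203, range 23 to 619), against 158 bases for the peaks inside the same genes and 154 for all autosomal peaks in genes. Intergenic peaks more than 20 kb from a bound gene had a median of 142 bases. By distance past the end the median was 155 bases in the first 1000, then 157, 143, 163 and 149 in the bins to 20 kb, with no steady trend. The Gnasas1 run held longer peaks, with a median of 199 bases over 35 peaks, and without it the median of the rest was 148.5. The longest downstream peak, with a length of 619 bases, followed Fbxl18, an F-box protein gene. Next came peaks with lengths of 523 bases (Gnasas1), 506 (2610008E11Rik), 501 (9330188P03Rik) and 491 (Naa40, which encodes a histone acetyltransferase).

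Of the 4 genes with the most downstream peaks, Gnasas1 and Mir99ahg are noncoding, while protein-coding genes held 349 of the 439 peaks. Gnasas1 (chromosome 2, 174281237 to 174295436), an antisense RNA whose 30 peaks were all on the minus strand, had 35 more past its end, at 496 to 14057 bases. They covered 56.2% of the 13741 bases they spanned, with a median spacing of 350 bases and no step above 1154. The last peak inside the gene lay 359 bases from its end, so the run went on past the annotated end with a step of 855 bases. Mir99ahg, the host transcript of miR-99a and let-7c (chromosome 16, 77329328 to 77558428), had 39 peaks inside and 17 past its end. Its downstream peaks were far off: 1 lay at 4619 bases and the other 16 between 11006 and 17952 bases, with Mir99a still 22556 bases beyond the last one. Among the lesser-known noncoding genes, 9330188P03Rik had 3 peaks inside and 8 past its end, A830082K12Rik 17 and 7, and Gm19426 4 and 7.

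Among protein-coding genes Qk had the most. Qk (chromosome 17, minus strand) encodes an RNA-binding protein that regulates splicing in glia, and it carried 169 peaks inside and 22 past its end, at 281 to 9435 bases. There were 5 of these within 3 kb of the end, then none for 1728 bases, then 17 from 4334 bases on. 2610008E11Rik (chromosome 10, minus strand) had 7 peaks inside over 33.2 kb and 19 past its end between 3095 and 11675 bases. Its last inside peak lay 4949 bases before the end, so 8044 bases without a peak lay between the gene's peaks and the run.

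**Figure D2:**
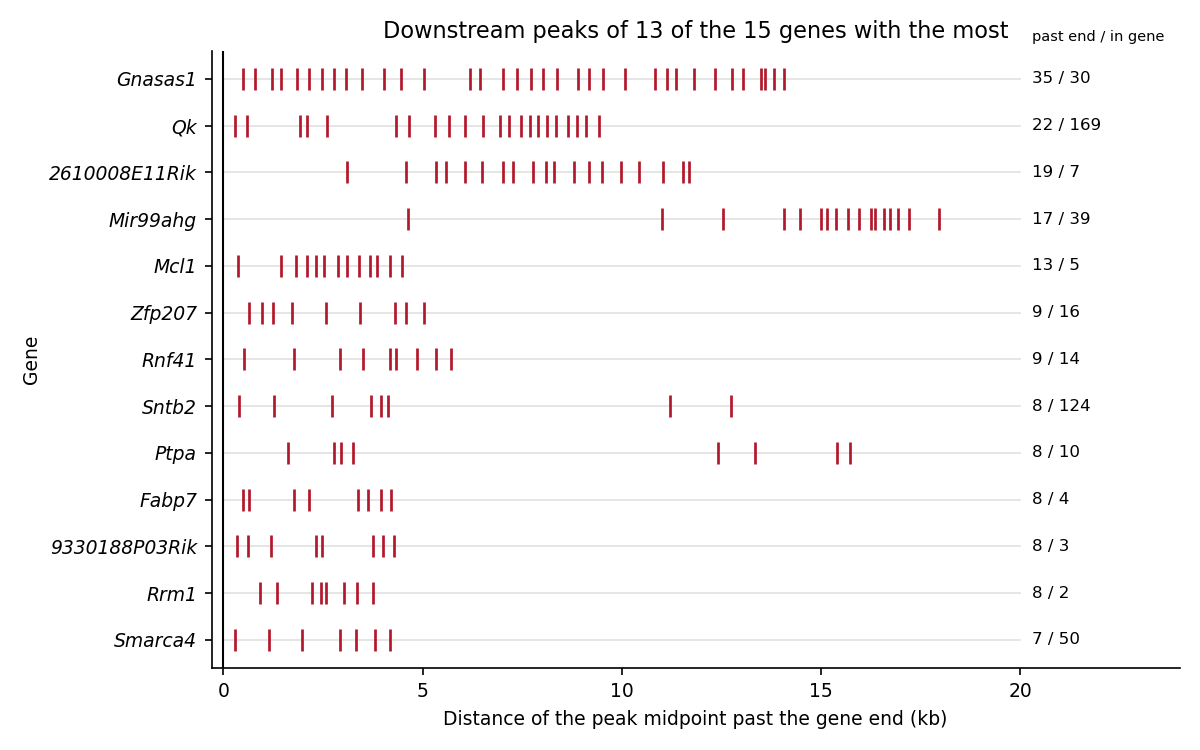
Distance of each downstream peak's midpoint past the end of its gene (x axis, kb; 0 is the annotated end along the gene's majority strand) for 13 of the 15 genes with the most downstream peaks, 1 tick per peak. Numbers at the right give peaks past the end and peaks inside the gene; most runs start close to the end, while that of Mir99ahg lies mainly between 11006 and 17952 bases.

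In 24 of the 138 genes more peaks lay past the end than inside, and these genes held 167 of the 439 peaks. Mcl1, which encodes a BCL2-family protein that holds off apoptosis (chromosome 3, 6.24 kb), had 5 inside and 13 past its end. Rrm1, which encodes the large subunit of ribonucleotide reductase, had 2 peaks inside over 28.1 kb and 8 past its end, at 925, 1335, 2220, 2435, 2578, 3019, 3343 and 3742 bases. The Rrm1 peaks thus lay within a stretch of 2924 bases, while the gene's last inside peak lay 6383 bases before its end. Fabp7, the brain fatty acid-binding protein gene of radial glia (chromosome 10, 3.53 kb), had 4 inside and 8 past its end, from 482 to 4193 bases. Id3, an inhibitor of bHLH transcription factors, had 2 inside and 4 past its end, at 200, 370, 626 and 904 bases.

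Other genes had long runs beside many peaks inside. Zfp207, a zinc finger gene, had 16 inside and 9 past its end, from 641 to 5026 bases, with no step above 865. Rnf41, a ubiquitin ligase gene, had 14 inside and 9 past its end between 505 and 5708 bases, although its last inside peak lay 18988 bases before the end. Ptpa, which encodes an activator of protein phosphatase 2A, had 10 inside and 8 past its end in 2 groups, 4 between 1629 and 3248 bases and 4 between 12418 and 15715. Sntb2, a syntrophin gene, had 124 inside and 8 past its end, 6 of them within 4141 bases and the others at 11213 and 12749. Smarca4, the ATPase gene of the SWI/SNF remodeller, had 50 inside and 7 past its end, from 278 to 4173 bases. Ppp1cc, a protein phosphatase 1 gene, had 13 inside and 6 past its end.

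At Mcl1 plus-strand peaks went on into its neighbours. Between Mcl1 and Gm52627, 8992 bases apart, there were 27 intergenic plus-strand peaks, of which 13 were nearer to Mcl1 and were counted for it. Gm52627 is annotated on the plus strand and held 2 plus-strand peaks. Which transcript these peaks and the intergenic peaks nearer to Gm52627 came from was not tested. Adamtsl4, annotated on the minus strand, held 3 plus-strand peaks and 0 on its own. Past Adamtsl4 in the same direction came the 5 peaks counted for it at 2846 to 19416 bases. These 5 lie before the start of Adamtsl4 as annotated, since its majority strand is opposite to its own. Allowing steps of up to 5 kb, 31 plus-strand peaks followed the last Mcl1 peak without a break, to 15723 bases past the end of Mcl1. That point lies inside Adamtsl4, and the next step was longer than 5 kb. In the stretch examined no minus-strand peak was listed.

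**Figure D3:**
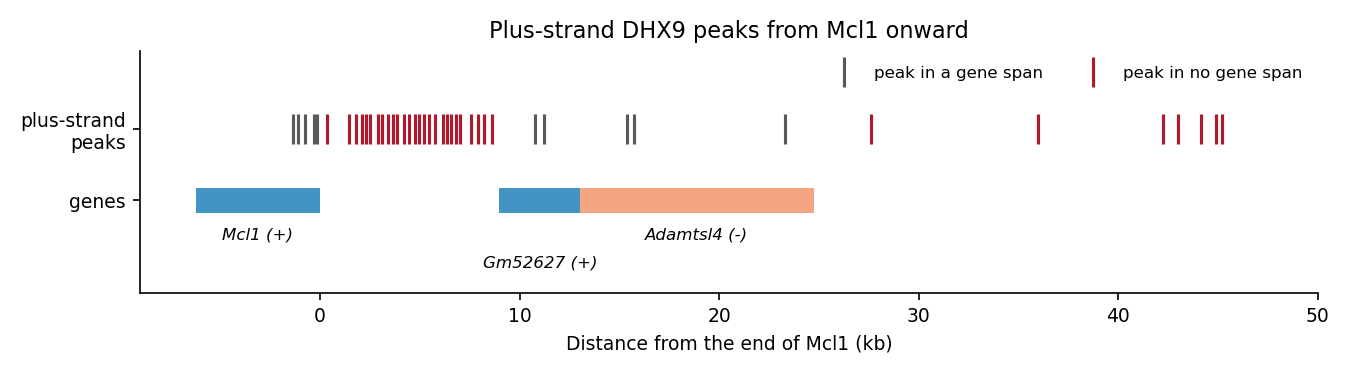
Midpoints of plus-strand peaks (upper row, 1 tick per peak; red in no gene span, grey in a gene span) and gene spans with their annotated strand (lower row, plus in blue, minus in salmon) by distance from the end of Mcl1 (x axis, kb). The 27 red ticks between Mcl1 and Gm52627 lie in a gap of 8992 bases, and the 3 ticks over Adamtsl4 are opposite to its annotated strand.

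By the same measure, with steps of at most 5 kb from the last inside peak, 48 of the 138 genes were followed by a run of 2 or more same-strand peaks and 28 by a single such peak. In the other 62 the first step was longer. Of the 48 runs, 13 reached past the gene end into or across the span of another gene, and 2, those of Mcl1 and Gnasas1, reached more than 10 kb past the end. For Gnasas1, Gm19426, Ppp2ca and Spred1 the gene crossed was only a microRNA gene, and for n-TRccg2 only transfer RNA genes. Peaks inside the other gene counted toward the run, whether or not they were that gene's own. From Epn2, an endocytic adaptor gene with 116 peaks inside, 14 peaks followed over 6527 bases and into B9d1, which is annotated on the other strand and whose 8 peaks were all on the strand of Epn2.

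The strand of these genes could be checked with the strand that RefSeq gives for 113 of the 138. The majority strand of the peaks was the annotated strand in 111 (98.2%, interval 93.8 to 99.5%), against 3230 of 3485 bound autosomal genes (92.7%, 91.8 to 93.5%), a set that also holds genes overlapped by a bound gene of the other strand. The exceptions were Adamtsl4 and Iqcg, with 5 and 1 downstream peaks. Among genes with peaks in no other gene, 78 of 3110 had at least 1 such peak opposite to their annotated strand. Of these 78, 27 (34.6%, 25.0 to 45.7%) lay within 20 kb past, or across, the end of a bound gene of that opposite strand, against 441 of the 3110 (14.2%, 13.0 to 15.5%).

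Most downstream peaks faced a long open stretch. The next gene in the direction of transcription was a median of 8824 bases away (interquartile range 4402.5 to 21479). It carried no peak for 351 of the 439 and a peak for 88, while of all 47042 autosomal genes 4638 (9.86%) held a peak. The rule itself bears on this count, since a peak nearer to a bound neighbour is given to that neighbour. An unbound gene lay between the peak and its own gene for 15 peaks. For 61 of the 439 peaks the next gene was nearer than their own. Counted over all 439, 48 peaks lay within 2 kb of the next gene. The genes with most of these were Gnasas1 (before Mir296 and Mir298), Gm19426 (before Mir130a and Ypel4), Ahdc1, the elongation factor gene Eef1b2 and Hnrnpc. All 3 peaks past Eef1b2 lay 1387 to 1734 bases from the next gene, Gpr1, which is annotated on the other strand and had 0 peaks.

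Few bound genes had downstream peaks. Of 47042 autosomal genes, 4638 (9.86%) held a peak midpoint, and 3692 of those had a majority strand and open DNA past their end. Of the 3692, 138 had a downstream peak, which is 3.74%. By kind of gene it was 123 of 3494 protein-coding genes (3.52%), 11 of 137 long noncoding RNA genes (8.03%, interval 4.54 to 13.8%), 2 of 24 transfer RNA genes, 1 of 2 microRNA genes and the 1 antisense RNA.

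Genes with downstream peaks were densely bound and rather short. They had a median of 7 peaks inside, against 3 in the 3554 other genes with open DNA past the end. Their median span was 28.1 kb, against 40.6 kb, and their median density was 0.432 peaks per kb, against 0.0994. The share with a downstream peak was 1.87% (1.20 to 2.91%) among genes with a single peak, 3.00% with 2 to 4, 4.12% with 5 to 9, 4.34% with 10 to 24, 9.05% with 25 to 49 and 11.7% (7.23 to 18.4%) with 50 or more. In the densest quartile of genes by peaks per kb the share was 8.88% (7.21 to 10.9%), and in the least dense quartile 1.08% (0.590 to 1.98%). By span the shortest quartile of genes had 5.74% (4.42 to 7.43%) and the longest 2.17% (1.41 to 3.32%). Expression was not measured, so its part in these shares was not tested.

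**Figure D4:**
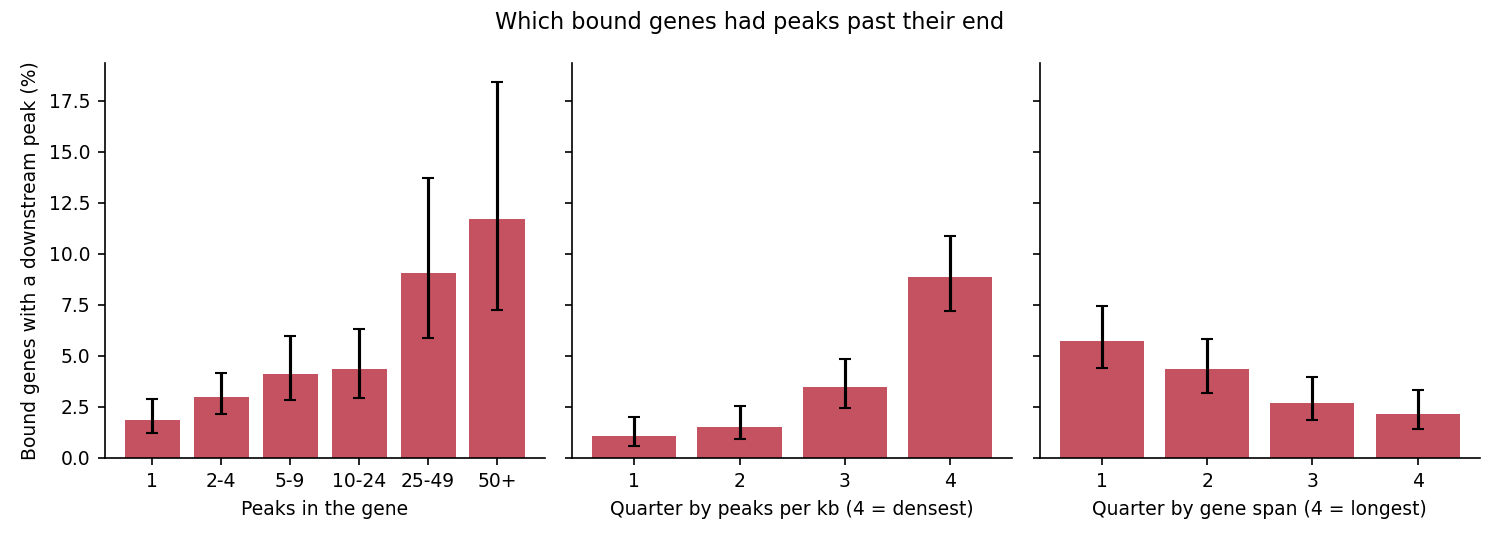
Share of bound genes with open DNA past the end that had at least 1 downstream peak (y axis, percent; bars from 0 with 95% Wilson intervals), by number of peaks in the gene (left), by quartile of peaks per kb in the gene (middle) and by quartile of gene span (right). The share was 11.7% with 50 or more peaks and 1.87% with a single peak, and 8.88% in the densest quartile and 1.08% in the least dense.

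Inside these genes the peaks also reached nearer to the end. The last peak inside lay a median of 2211.5 bases from the gene end in genes with downstream peaks, against 11125 bases in the other bound genes. It was within 1000 bases of the end in 49 of 138 (35.5%, interval 28.0 to 43.8%), against 339 of 3554 (9.54%, 8.62 to 10.5%). As a position along the gene the median was 86.3% of the span, against 66.6%. The difference had the same direction in each quartile of gene span: 52.8% against 23.7% of genes had their last peak within 1000 bases of the end in the shortest quartile, then 17.5% against 8.15%, 36.0% against 4.45%, and 25.0% against 2.33% in the longest. Among genes with at least 10 peaks it was 37.3% against 11.3%. None of these comparisons matched the genes by peak density, whose median was 0.432 against 0.0994 peaks per kb. In a denser gene the last peak tends to lie nearer to the end, so a difference apart from density was not tested.

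**Figure D5:**
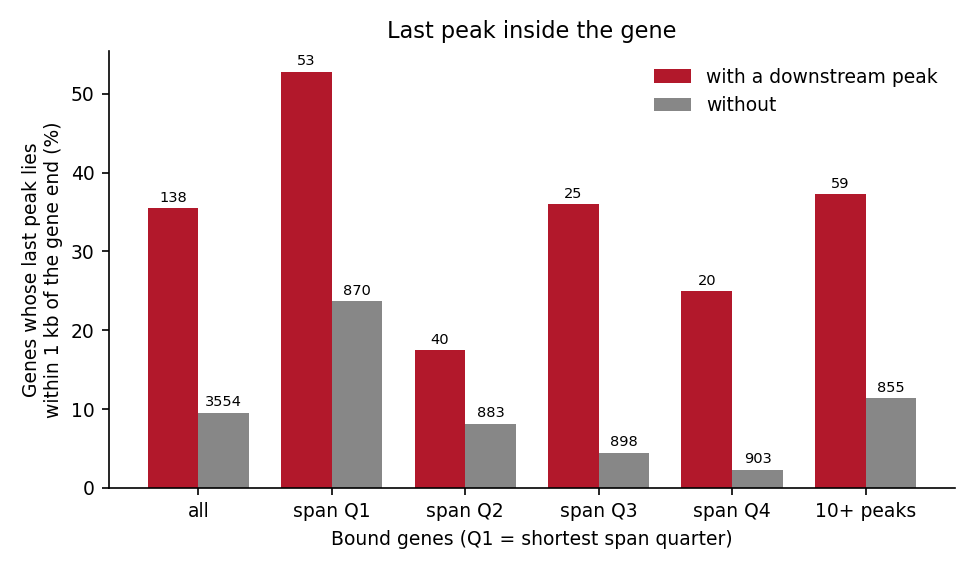
Share of bound genes whose last peak inside the gene lay within 1000 bases of the gene end (y axis, percent, from 0), for genes with a downstream peak (red) and without (grey), over all genes, by quartile of gene span and for genes with at least 10 peaks. Numbers above the bars are genes; the red bar is higher in every pair, 35.5% against 9.54% over all genes.

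Most of the 138 genes are in none of the gene lists, whose shares stand beside the 3.74% of all bound genes with open DNA and were not tested for enrichment. Of the splicing and RNA processing genes, 6 of 33 (18.2%) had downstream peaks, 18 in all. Among them Hnrnpc had 5, Hnrnpa2b1 and Srsf1 had 2 each, and Hnrnpr and Tra2a had 1 each. Hnrnpc, Hnrnpa2b1 and Hnrnpr encode RNA-binding proteins of nascent transcripts, and Srsf1 and Tra2a encode SR-type splicing factors. Of the neural progenitor genes, 4 of 17 (23.5%) had them: Fabp7 with 8, Id3 with 4, and 1 each for the RNA-binding protein gene Msi2, with 179 peaks inside, and the receptor phosphatase gene Ptprz1, with 64. Of the long noncoding RNA genes, 2 of 11 had them, Gnasas1 and Mir99ahg with 52 peaks together.

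Other lists had 1 gene or none. Smarca4 was the only 1 of 25 chromatin regulators, Rps19 the only 1 of 15 ribosomal protein genes, and Spry2, an inhibitor of receptor tyrosine kinase signalling, the only 1 of 6 genes for signalling feedback and immediate early response. None was found past 20 genes for transcription termination and 3′ end formation, 10 cell cycle genes and 7 chaperone genes. A limit of 3 divided by the number of genes allows shares of up to 15.0%, 30.0% and 42.9%. That limit is not a Wilson interval and is rough for so few genes. With so few genes per list, these shares are given only as descriptions.

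Downstream peaks were spread over 18 of the 19 autosomes and over both strands, 222 on the plus strand behind 68 genes and 217 on the minus strand behind 70. Per 1000 peaks of the chromosome, the highest values were 29.1 on chromosome 10, where 2610008E11Rik, Rnf41 and Fabp7 lie, and 24.3 on chromosome 2, where Gnasas1 lies. Chromosome 18 had 0 of its 1337 peaks in this class, but only 10 of the 1337 lay in no gene span. Over all autosomes the class held 439 of 42236 peaks (1.04%).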

How the data were processed

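FLASH libraries of mouse neural progenitor cells, 2 of the DHX9-Rb antibody and 2 of IgG-Rb (groups from the sample titles), were represented by 1 deposited peak list. Per the file itself the peaks were called with PEAKachu, a caller that compares pull-down with control libraries. The submitters' processing notes list the aligner Bowtie2, version 2.2.6, with mm10 and hg19 as builds. Per the labels' protocols, random bases in the adapters served to merge PCR duplicates. The caller's settings and threshold and the placing of reads with several matches are not given in the sources used here. The deposited columns used were the first and last base and the strand; the score column was empty.

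Gene spans came from the RefSeq table of GRCm38.p6 (mm10; 49980 genes), and strands from the RefSeq promoter and microRNA tables for 28030 of them. A gene was bound if its span held a peak midpoint, and its majority strand was that of most such peaks. Ties between genes ending at 1 base went to the gene with more peaks. Open DNA was counted base by base up to 20 kb. Code was tested on simulated peaks. Medians, shares and Wilson intervals were computed with Python 3.11.15, pandas 2.3.3 and scipy 1.17.1. No test across samples or chance comparison was made. The downstream peaks and the gene lists were chosen with earlier results of these data known.

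Named genes were the 15 with the most downstream peaks, the 5 with the most per inside peak among genes with at least 10, up to 3 per list, the 5 longest peaks, those at the 20 kb limit, and up to 5 reaching within 2 kb of another gene. Others, among them those named for a microRNA, a neighbour, a count or a strand, were picked once their values were known. A few genes that met these rules are not reported here. The sequence under the peaks was not analysed here.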

Additional observations from a re-analysis of the deposited data

Results flagged for a closer look

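The same rule was applied to the sex chromosomes, which the descriptions above leave out. On chromosome Y, 5 of 41 peaks met it, all past the predicted gene Gm33272, and on chromosome X 0 of 771 peaks did. Only 12 of the peaks on Y and 11 of those on X lay in no gene span. The value for Y drew attention because it is above the 3 that a count of 0 would allow in data no comparison used.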

How the results depend on the processing

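No paired analysis was possible because the single peak list carries no value per library, and for the same reason no replicate could be left out. The alternatives of using the annotated strand, of counting any bound gene end and of leaving out the 10 genes with the most downstream peaks were chosen after seeing the data, and the last removes genes by the value described. Of the 104 values over 8 results and 13 alternatives, those that left the interval of the main value (or 1.5 times it, for counts) follow. Dropping peaks shorter than the list's median left 203 peaks past 71 genes, a median length of 206, a spacing of 543 bases, and 7.58 peaks per Mb past the end against 1.61 before the start, fewer by construction. Merging peaks within 50 bases gave a spacing of 532 and 10.9 per Mb. Requiring 3 peaks in the gene gave a share of 72.4%, a median distance of 2661 bases and 17.9 per Mb. A window of 10 kb gave 1988 bases, 17.9 per Mb past the end and 4.04 before the start, and one of 50 kb gave 6.65 and 1.62, since the window sets the DNA counted. Protein-coding genes alone gave 1.40 per Mb before the start. Taking the nearest bound gene of the peak's own strand gave a share of 80.1%, as other-strand peaks drop out. Any bound gene end gave 75.8% and 1.35 per Mb before the start, since peaks and DNA within 20 kb past such an end were taken off the upstream side. Without the 10 genes, 288 peaks, 56.1%, 1577 bases, a spacing of 444.5 and 7.92 per Mb remained. The density past the end was between 3.05 and 9.21 times that before the start in all of these, 4.63 in the main setting. The 9.21 was that of any bound gene end, which lowers the upstream density by construction.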
